A study of Mus musculus with 2 samples.

Results

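The p53 pathway and GADD45 genes described here were 10 genes chosen by symbol: *Trp53*, *Mdm2*, *Bax*, *Ccng1*, *Gadd45a*, *Gadd45b*, *Gadd45g*, *Sesn2*, *Btg2* and *Trp53inp1*. All 10 were found among the 45777 genes of the deposited table, with 22 annotated transcripts in all, and all 10 were among the 15857 genes that reached 10 estimated counts in at least 1 library. *Trp53inp1*, *Mdm2* and *Ccng1* were more abundant in the AAV-*Wee1-AS* liver, by 6.75-fold, 5.21-fold and 2.34-fold. *Gadd45b* and *Gadd45g* were less abundant in it, by 6.52-fold and 2.15-fold. *Trp53*, *Bax*, *Sesn2* and *Btg2* were also lower and *Gadd45a* was higher, each by less than 2-fold. With the trends with GC content and length removed (described below), *Ccng1* was at a log2 ratio of -0.01 and *Gadd45g* at -0.28. *Trp53inp1* (1.19), *Mdm2* (1.89) and *Gadd45b* (-1.96) were still past 2-fold. The genes therefore did not lie on one side, and known p53 targets were found among the higher as well as the lower genes.

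RNA came from livers of C57BL/6 mice on a high-fat diet (HFD), which both groups received for 18 weeks from 7 weeks of age. At week 13, 5 weeks before the end, one group received AAV-GFP, which encodes green fluorescent protein and served as the control, and the other AAV-*Wee1-AS*, which encodes the long noncoding RNA *Wee1-AS*. Per the methods, the *Wee1-AS* vector is an AAV9 with a CMV promoter, which is not restricted to hepatocytes, and it was injected into the retro-orbital sinus. Poly-A RNA was sequenced, and 1 library per group was analysed here, with 55466182 estimated counts (AAV-GFP) and 48079335 (AAV-*Wee1-AS*). There is thus no spread between mice, no replicate check and no p-value for any difference below, and the difference between the groups cannot be told apart from a difference between these 2 libraries. The design text of the series counts 4 liver samples, of which 2 were analysed here. Sex, and whether a library held RNA of several mice, are not given in the sources used here, and the vector's own transcript was not analysed here. In bulk liver, fewer cells of a type and less RNA per cell cannot be told apart.

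p53, the product of *Trp53*, is a transcription factor that is held at a low level by MDM2, a ubiquitin ligase that marks it for degradation. Because *Mdm2* is itself a p53 target, the pair forms a feedback loop, and most of the control of p53 acts on the protein and not on its mRNA. When the loop is released by DNA damage or other stress, p53 activates genes of cell cycle arrest, apoptosis, DNA repair and metabolism, among them *Bax*, *Ccng1*, *Sesn2*, *Btg2*, *Trp53inp1* and *Gadd45a*. *Gadd45b* and *Gadd45g* code for relatives of GADD45A that are best known as responders to cytokines, growth signals and, in liver, nuclear receptors.

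Promoter sequences are shown because several of these genes are known targets of one transcription factor while their levels differed in opposite directions. They were taken from a table of RefSeq promoters (GRCm38.p6), in which 9 of the 10 genes were matched and *Trp53inp1* was not, and were searched on both strands over the 250 bases before the start of each gene. The 10-base p53 half-site consensus, of which a full p53 element has a pair, was found in 5 of 9 of these promoters and in 7.13% of all 32851 promoters of the same length. The known p53 elements of *Mdm2* and *Gadd45a* lie in introns and so outside this window. In the sequences of these 5 genes, written 5′ to 3′ on the strand of the gene, the half-site match is in capitals, and bases at the end of a window that annotated exons or transcripts cover were left out for *Ccng1* (225 bases shown) and *Bax* (245). For *Trp53*, where such transcripts cover much of the window, and for *Gadd45a*, where they cover all of it, only 30 bases around the match are shown.
Mdm2, chr10:117710759-117711008, minus strand: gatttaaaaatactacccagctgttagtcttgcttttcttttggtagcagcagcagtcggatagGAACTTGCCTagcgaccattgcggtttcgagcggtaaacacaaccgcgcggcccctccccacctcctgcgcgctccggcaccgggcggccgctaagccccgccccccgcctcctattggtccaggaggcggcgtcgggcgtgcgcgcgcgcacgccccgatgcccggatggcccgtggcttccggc
Ccng1, chr11:40755312-40755536, minus strand: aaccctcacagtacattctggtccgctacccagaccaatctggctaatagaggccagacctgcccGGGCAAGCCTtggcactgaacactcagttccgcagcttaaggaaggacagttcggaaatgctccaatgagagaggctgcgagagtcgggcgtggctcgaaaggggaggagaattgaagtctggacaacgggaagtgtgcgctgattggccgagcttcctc
Bax, chr7:45466904-45467148, minus strand: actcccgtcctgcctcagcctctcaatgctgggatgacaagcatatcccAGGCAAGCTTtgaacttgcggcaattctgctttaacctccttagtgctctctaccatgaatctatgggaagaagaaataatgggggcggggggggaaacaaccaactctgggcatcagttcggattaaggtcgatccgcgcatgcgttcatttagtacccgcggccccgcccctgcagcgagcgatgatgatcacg
Trp53, chr11:69580274-69580303, plus strand: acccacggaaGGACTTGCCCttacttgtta
Gadd45a, chr6:67037428-67037457, minus strand: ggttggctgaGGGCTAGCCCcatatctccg

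The match began 186 bases before the start in *Mdm2*, 185 in *Ccng1*, 201 in *Bax*, 75 in *Trp53* and 40 in *Gadd45a*. These 5 genes lay on both sides of 0, with *Mdm2*, *Ccng1* and *Gadd45a* higher and *Bax* and *Trp53* lower in the AAV-*Wee1-AS* library. Removal of the trends with GC content and length brought *Ccng1* and *Bax* both to a log2 ratio of -0.01. The 4 genes whose window held no match, *Gadd45b*, *Gadd45g*, *Sesn2* and *Btg2*, were all lower, as were 8010 of the 15857 genes kept. With the trends removed they were at -1.96, -0.28, -0.13 and -0.83. Of the genes with a match, *Trp53* was then at -0.47, *Mdm2* at 1.89 and *Gadd45a* at 0.84. This is a description of 9 chosen genes, with no test. A match gives these letters only and is not a bound site.

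*Gadd45b* and *Gadd45g* were the genes of the set with ratios below 0.5, though *Gadd45g* was at a log2 ratio of -0.28 with the trends removed. Both held the core promoter motif TATAAA on their own strand, which ended 41 and 22 bases before the start. It was found in 12.4% of all promoters on either strand and in 3 of 9 of these, the other being *Trp53*, where it lay 248 bases before the start on the opposite strand. *Btg2* was the 1 of 9 with the cyclic AMP response element TGACGTCA, 166 bases before the start, against 1.55% of all promoters. These motifs are in capitals in the following windows, of which that of *Gadd45b* is shown for 232 bases for the same reason.
Gadd45b, chr10:80929841-80930072, plus strand: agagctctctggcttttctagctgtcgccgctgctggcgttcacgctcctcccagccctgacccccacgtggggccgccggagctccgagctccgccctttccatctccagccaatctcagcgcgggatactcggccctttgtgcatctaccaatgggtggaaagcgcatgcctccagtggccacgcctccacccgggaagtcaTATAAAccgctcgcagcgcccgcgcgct
Gadd45g, chr13:51846425-51846674, plus strand: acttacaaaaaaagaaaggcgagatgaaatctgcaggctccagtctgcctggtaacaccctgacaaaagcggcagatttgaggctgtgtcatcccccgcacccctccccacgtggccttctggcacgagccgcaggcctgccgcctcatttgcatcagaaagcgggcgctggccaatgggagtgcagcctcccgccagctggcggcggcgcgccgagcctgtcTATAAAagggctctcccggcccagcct
Btg2, chr1:134079156-134079405, minus strand: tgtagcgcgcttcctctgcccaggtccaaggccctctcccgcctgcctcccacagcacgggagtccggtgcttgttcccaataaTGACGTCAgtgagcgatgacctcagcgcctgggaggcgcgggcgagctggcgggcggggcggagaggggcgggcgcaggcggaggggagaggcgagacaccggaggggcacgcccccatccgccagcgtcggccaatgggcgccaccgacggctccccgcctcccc

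Of the other motifs searched, CCAAT was found in 8 of 9 promoters (33.8% of all) and GGGCGG in 6 of 9 (32.7%). TGATGNAA, the letters of C/EBP and ATF4 composite elements, was found in 1 of 9, *Gadd45g* (3.45% of all), and the 10-base NF-kB consensus in 0 of 9 (7.25% of all).

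Levels below are estimated counts scaled to library size by the TMM method (CPM), which compare one gene between the libraries. TPM, which is also scaled to transcript length, is used to compare genes with each other. The brackets hold a 95% interval of the log2 ratio from the counts alone. It covers counting error only, not the spread between mice. The log2 ratios and folds include an added prior count of 2, which shrinks those of low counts, and the brackets and CPM do not. With a prior count of 0.5, *Gadd45b* was at a log2 ratio of -2.83 and *Trp53inp1* at 2.76.

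**Figure D1:**
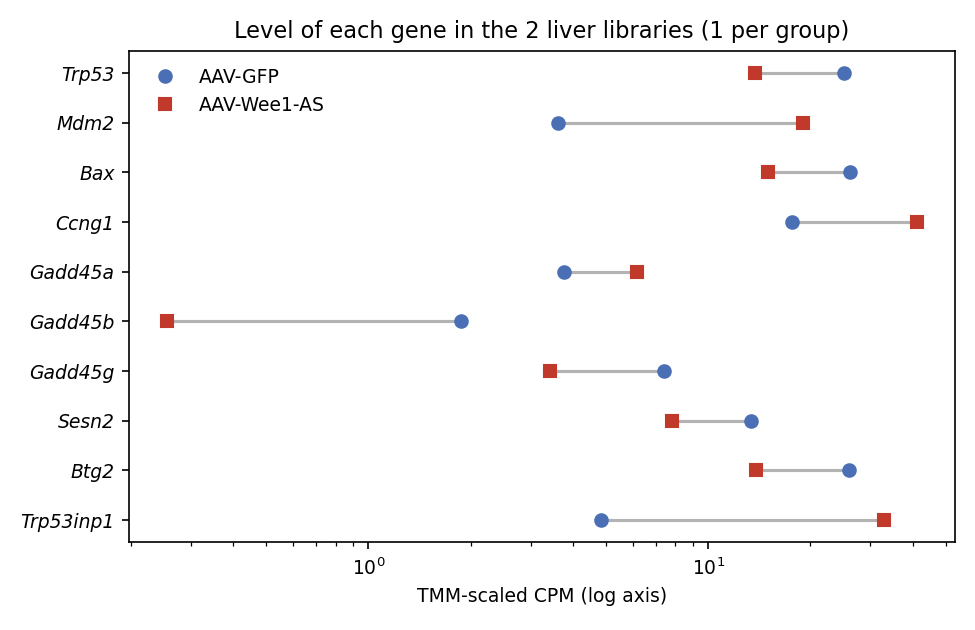
Level of each of the 10 genes in the AAV-GFP library (blue circles) and in the AAV-Wee1-AS library (red squares), in TMM-scaled CPM on a log axis, with 1 library per group and so no error bar. The gap was widest for Gadd45b (1.87 and 0.255 CPM), Trp53inp1 (4.84 and 32.9 CPM) and Mdm2 (3.62 and 19.0 CPM).

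Ordered by TPM, *Bax* was the most abundant of the 10 genes in both libraries, at 51.6 with AAV-GFP and 29.1 with AAV-*Wee1-AS*. In the AAV-GFP library, *Trp53* (23.2), *Btg2* (14.4) and *Gadd45g* (11.8) came next, and *Trp53inp1* (1.53) and *Mdm2* (1.31) were the lowest. In the AAV-*Wee1-AS* library, *Ccng1* moved to the second place, *Trp53inp1* (10.2 TPM) and *Mdm2* (9.95 TPM) came just under *Trp53* (12.6 TPM), and *Gadd45b* was the lowest at 0.337. *Ccng1* and *Sesn2* were side by side with AAV-GFP, at 8.68 and 8.65 TPM, and stood at 19.97 and 4.98 TPM with AAV-*Wee1-AS*. With 1 library per group, the spread that would tell neighbours in this order apart is unknown.

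*Trp53* (gene ID 22059, mm10 chr11:69580348-69591873) was measured at 1420 counts in the AAV-GFP library and at 648 in the AAV-*Wee1-AS* library, or 25.1 and 13.7 CPM. Its log2 ratio was -0.87 [-1.004, -0.73], at percentile 11.8 of all genes kept. *Mdm2* (gene ID 17246, chr10:117688875-117710758), which codes for the ubiquitin ligase of p53, was measured at 205 and 897 counts, or 3.62 and 19.0 CPM. It lay on the other side of 0, with a log2 ratio of 2.38 [2.17, 2.62] at percentile 96.9. The transcription factor and its negative regulator thus differed in opposite directions, and neither interval reached 0.

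The genes of arrest, death and autophagy downstream of p53 did not share a direction in the ratios of scaled counts, though removal of the trends with GC content and length, described below, brought *Bax* and *Ccng1* both to -0.01. *Bax* (gene ID 12028, chr7:45461695-45466903), the BCL-2 family member that permeabilizes the outer mitochondrial membrane, was at 1478 counts with AAV-GFP and 707 with AAV-*Wee1-AS*, or 26.1 and 15.0 CPM, a log2 ratio of -0.80 [-0.93, -0.67]. *Ccng1* (gene ID 12450, chr11:40748552-40755309), which codes for cyclin G1, a p53 target that acts back on MDM2, was at 997 and 1944 counts, or 17.6 and 41.2 CPM, a log2 ratio of 1.23 [1.12, 1.34]. *Trp53inp1* (gene ID 60599, chr4:11156441-11174379), whose nuclear protein promotes p53 activity and takes part in autophagy, was at 274 and 1550 counts, or 4.84 and 32.9 CPM. Its log2 ratio of 2.75 [2.58, 2.95] was the highest of the 10 genes, at percentile 98.4 of all genes kept.

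*Btg2* (gene ID 12227, chr1:134074865-134079155) codes for an antiproliferative adaptor that recruits the CCR4-NOT deadenylase. It was at 1465 counts with AAV-GFP and 651 with AAV-*Wee1-AS*, or 25.9 and 13.8 CPM, a log2 ratio of -0.90 [-1.04, -0.77]. *Sesn2* (gene ID 230784, chr4:132492804-132510456) codes for sestrin 2, a leucine sensor that restrains mTORC1 through GATOR2, and is induced by ATF4 as well as p53. It was at 758 and 370 counts, or 13.4 and 7.85 CPM, a log2 ratio of -0.77 [-0.95, -0.59]. Both genes were lower in the AAV-*Wee1-AS* library by less than 2-fold. Removal of the trends with GC content and length left *Btg2* at -0.83 and brought *Sesn2* to -0.13. Upper quartile scaling put *Btg2* past 2-fold, at -1.11, and *Sesn2* at -0.97.

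The 3 GADD45 genes, whose small acidic proteins bind PCNA, CDK1 and the kinase MAP3K4, differed from each other. *Gadd45a* (gene ID 13197, chr6:67035096-67037407), the p53 target of the family, was at 213 counts with AAV-GFP and 290 with AAV-*Wee1-AS*, or 3.76 and 6.15 CPM, a log2 ratio of 0.70 [0.45, 0.97]. *Gadd45b* (gene ID 17873, chr10:80930091-80932204) was at 106 and 12 counts, or 1.87 and 0.255 CPM. Its log2 ratio of -2.71 [-3.88, -2.01] was the lowest of the 10 genes, at percentile 0.971, and its interval was the widest of the 10, since it rests on 12 counts. *Gadd45g* (gene ID 23882, chr13:51846675-51848475) was at 419 and 161 counts, or 7.41 and 3.42 CPM, a log2 ratio of -1.11 [-1.39, -0.85]. Removal of the trends with GC content and length brought it to -0.28. The order of the family by TPM differed between the libraries: *Gadd45g* stood above *Gadd45a* with AAV-GFP (11.8 and 5.28 TPM) and below it with AAV-*Wee1-AS* (5.31 and 8.49 TPM). *E230016M11Rik* overlaps *Gadd45a* by 809 bases and was listed at 2 and 24 counts, so reads of the pair may not have been told apart if the counting ignored strand, which is not given in the sources used here.

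In all, 4 of the 10 genes were higher and 6 lower in the AAV-*Wee1-AS* library, against 7847 higher and 8010 lower among all genes kept. 5 of the 10 genes were past 2-fold, where 31.0% of all genes were. 3 had a ratio above 2, beside 22.2% of all genes, and 2 a ratio below 0.5, beside 8.71%. The whole counting interval was past 2-fold for *Mdm2*, *Ccng1*, *Trp53inp1* and *Gadd45b*, which was so for 19.8% of all genes. The median log2 ratio of the 10 genes was -0.78, from -2.71 to 2.75, and that of all genes was -0.02, with the middle 95% of genes between -1.82 and 2.52. *Trp53inp1* and *Gadd45b* were outside that middle range and the other 8 genes within it. As 2-fold differences were common between these libraries, 5 of 10 genes is a description of these genes and does not set them apart.

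**Figure D2:**
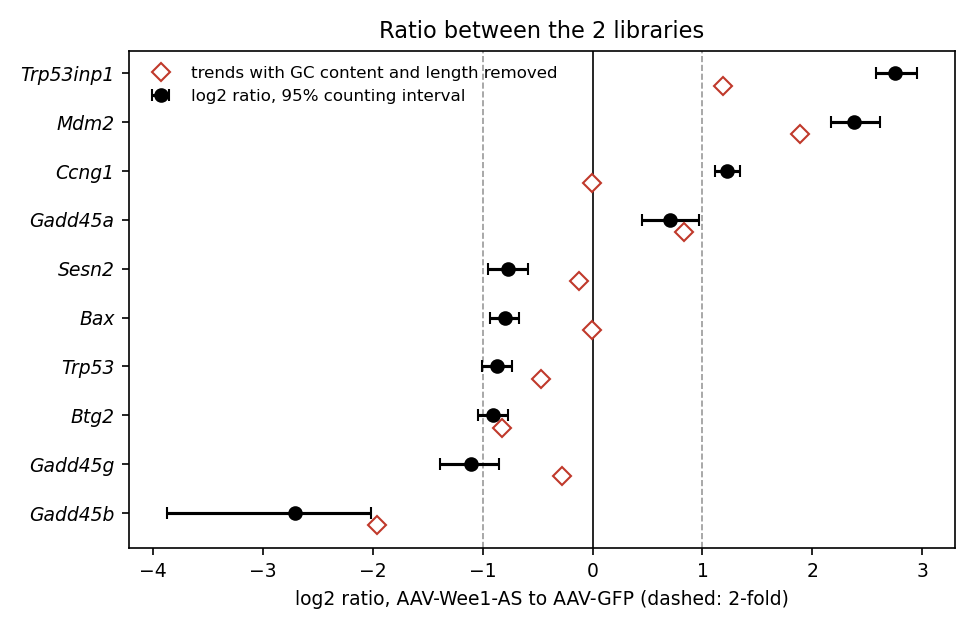
log2 ratio, AAV-Wee1-AS over AAV-GFP, for each gene (black points, bars for the 95% counting interval) and the same after removal of the trends of all genes with GC content and length (open red diamonds), where dashed lines mark 2-fold. Mdm2, Trp53inp1 and Gadd45b stayed past 2-fold by both values, and Ccng1 fell from 1.23 to -0.01.

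The ratios between these libraries went with the base composition of the transcripts. Across all genes, Spearman's rho of the log2 ratio with GC content was -0.67 and that with transcript length 0.34, as a description across genes of the same 2 libraries. The decile of genes with the lowest GC content (31.0% to 41.5%) had a median log2 ratio of 1.43, and the decile with the highest (57.7% to 72.8%) one of -0.69. The 10 genes were spread over this range, and their rho with GC content was also -0.67. The part of GC content in the differences was not tested, and it cannot be told apart from the vector in these 2 libraries.

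*Ccng1* (GC content 40.8%) and *Trp53inp1* (38.8%) fell in the decile of lowest GC content, and *Bax* (63.5%), *Gadd45g* (59.9%) and *Sesn2* (58.7%) in that of the highest. When the trends with GC content and length were removed, the log2 ratio was -0.01 for *Ccng1* and -0.01 for *Bax*, at the level of all genes of like composition. *Sesn2* was then at -0.13, *Gadd45g* at -0.28 and *Trp53* (GC content 53.3%) at -0.47. *Mdm2* (46.2%) stood at 1.89, *Trp53inp1* at 1.19 and *Gadd45b* (56.9%) at -1.96, each past 2-fold on that scale, as were 15.9% of all genes. *Btg2* (49.7%) and *Gadd45a* (49.8%), whose GC content was near the middle, were at -0.83 and 0.84, close to their values without removal of the trends (-0.90 and 0.70). After removal, 3 of the 10 genes were higher and 7 lower, with a median of -0.07.

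**Figure D3:**
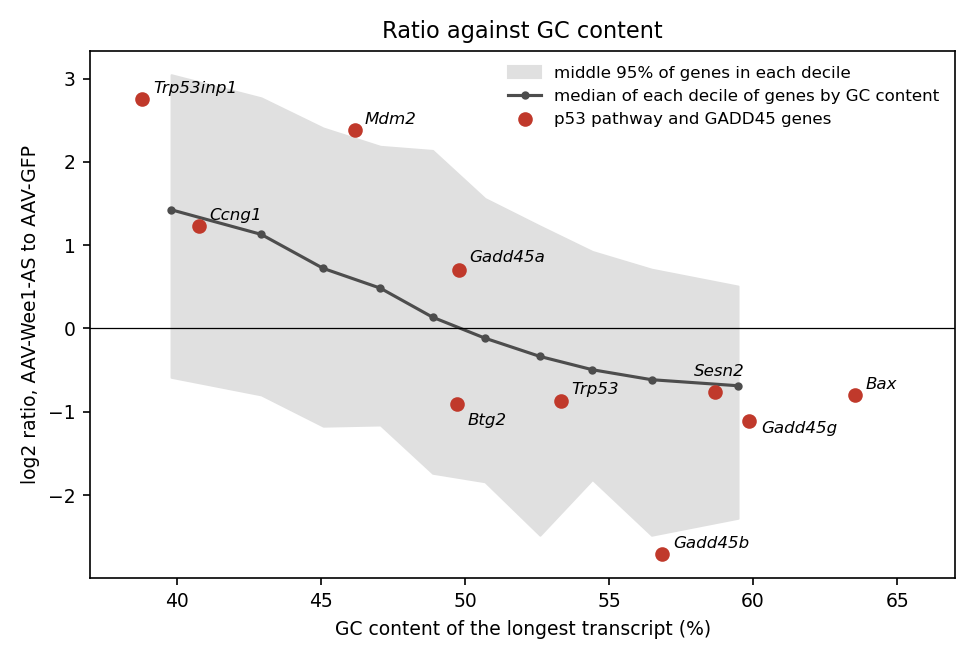
log2 ratio, AAV-Wee1-AS over AAV-GFP (y axis), against GC content of the longest transcript in percent (x axis) for the 10 genes (red points), with the median of each decile of all genes by GC content (line) and the middle 95% of genes in each decile (grey band). Ccng1, Sesn2 and Bax were near the line of all genes, while Mdm2 and Gadd45a were above it and Gadd45b and Btg2 below it.

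Of the 10 genes, 5 had more than 1 annotated transcript, and the deposited counts of these are shares assigned to overlapping models. For *Mdm2*, the difference lay in the full-length transcript NM_010786 (3099 bases), which was listed at 56 counts with AAV-GFP and 815 with AAV-*Wee1-AS*. It held 27.3% of the counts of the gene (exact interval 21.3% to 34.0%) in the first library and 90.9% (88.8% to 92.7%) in the second. The predicted transcript XM_017313822 (6718 bases), whose 5′ end lies inside the gene at chr10:117701559, went the other way, from 131 to 66 counts, or 63.9% to 7.36% of the gene. In the AAV-GFP library, most *Mdm2* counts were thus assigned to a model that lacks the start of the gene. By TPM, which is scaled to transcript length, XM_017313822 held 44.9% and NM_010786 41.8% of the gene in that library. NM_001288586 (3014 bases) was listed at 18 counts and 0, at least 4.998-fold lower when 0 is read as 3 counts, and XM_030244938 at 0 and 16, at least 6.40-fold higher.

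For *Trp53*, the sum held transcripts on both sides. NM_011640 (1772 bases) was at 624 counts with AAV-GFP and 159 with AAV-*Wee1-AS*, or 43.9% and 24.5% of the gene. NM_001127233 (1868 bases), the alternatively spliced transcript that alters the carboxyl terminus of p53, was at 311 and 187 counts, or 21.9% and 28.9%. Among the predicted transcripts, XM_030245922 was at 271 and 214 counts, XM_006533157 at 145 and 14, and XM_030245924 at 16 and 74, while XM_030245923 was at 53 and 0, at least 14.7-fold lower. *Trp53* was therefore lower as a sum and in 5 of its 6 transcripts, though XM_030245922, at a log2 ratio of -0.08, differed little. *Wrap53*, whose annotated span stops 97 bases before that of *Trp53*, was at 629 and 387 counts.

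The transcripts of the other 3 genes gave the direction of the sum wherever counts were large. *Bax* rested on NM_007527 (869 bases), with 1403 and 643 counts, while XM_006540584 was at 72 and 60 counts. *Ccng1* rested on NM_009831 (3487 bases), with 955 and 1879 counts. Both *Trp53inp1* transcripts were more abundant with AAV-*Wee1-AS*, NM_001199105 (5432 bases) at 224 and 1106 counts and NM_021897 (5394 bases) at 50 and 444.

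**Figure D4:**
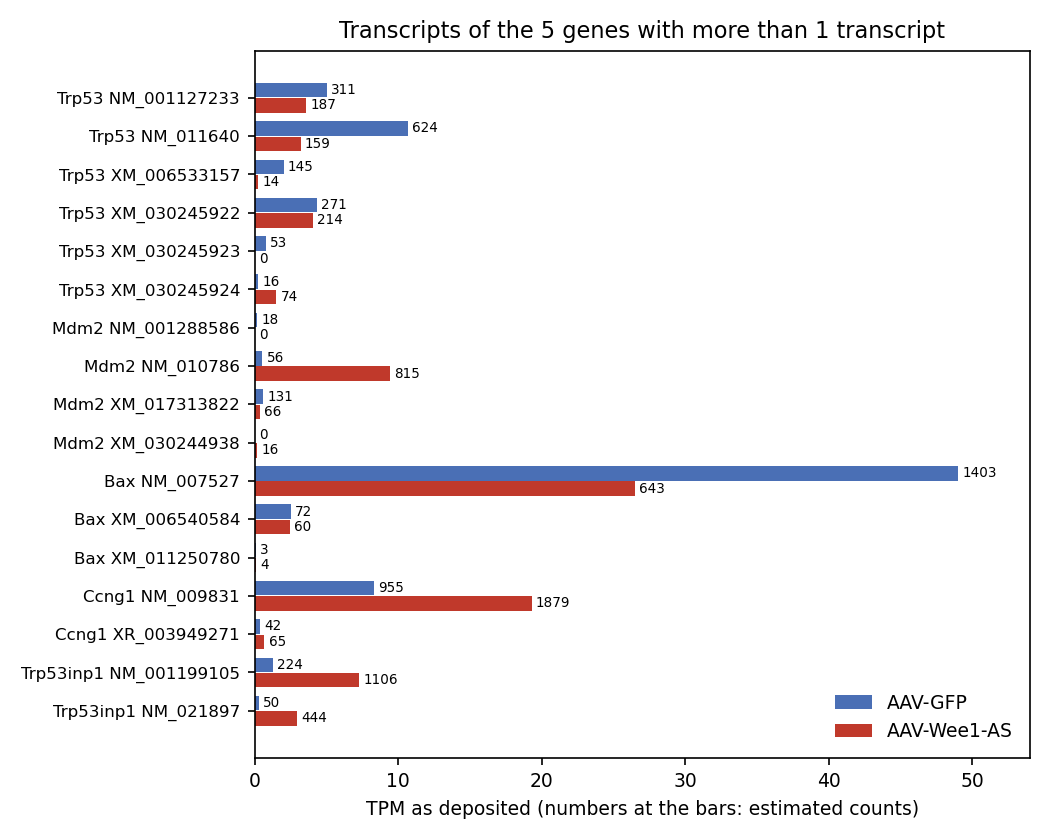
TPM, as deposited, of each transcript of the 5 genes with more than 1 annotated transcript, in the AAV-GFP library (blue bars) and the AAV-Wee1-AS library (red bars), with the estimated count at the end of each bar. NM_010786 carried the difference of Mdm2, with 56 and 815 counts. Several Trp53 transcripts were lower, NM_011640 the most in counts, with 624 and 159.

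Other genes of the pathway were read from lists of genes with known roles. The lists share genes, among them *Mdm4*, *Cdkn1a*, *Sesn1*, *Bak1*, *Bok* and *Atf3*, so their counts are not separate from each other. The 17 p53 regulators were mainly enzymes that modify p53 (kinases, ubiquitin ligases, deubiquitinases, acetyltransferases, a phosphatase and a deacetylase), with *Mdm4*, *Cdkn2a* and *Trp53bp1*, which act through binding. Of these, 15 were higher and 2 lower, with a median log2 ratio of 0.85 (0.52 with the trends removed). 8 of 17 had a ratio above 2 and 0 one below 0.5, beside 22.2% and 8.71% of all genes, and 4 of 17 were above 2 with the trends removed, beside 1132 of 15109 genes. *Mdm4*, the paralog of *Mdm2* that blocks transactivation by p53, was at 106 counts with AAV-GFP and 894 with AAV-*Wee1-AS*, a log2 ratio of 3.31 [3.05, 3.64], and at 1.89 with the trends removed. *Atr*, a kinase of the replication stress response, was at 68 and 584 counts, a log2 ratio of 3.32, and at 1.54 with the trends removed. The lowest of the list among genes of at least 100 counts were *Usp10*, a deubiquitinase of p53, at -0.24, which turned to 0.15 with the trends removed, and *Kat5*, an acetyltransferase of p53, at 0.08 (0.66).

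The p53 targets were spread to both sides. Of 36 kept, 16 were higher and 20 lower, and the median log2 ratio was -0.11 (-0.05 with the trends removed), near that of all genes. 6 of 36 had a ratio above 2, beside 22.2% of all genes, and 7 of 36 one below 0.5, beside 8.71%. With the trends removed, 3 were above and 4 below, where 15.9% of all genes were past 2-fold in either direction. *Cdkn1a*, which codes for the cyclin-dependent kinase inhibitor p21, was at 2044 counts with AAV-GFP and 602 with AAV-*Wee1-AS*, a log2 ratio of -1.50 [-1.63, -1.37], and *Phlda3*, an inhibitor of AKT, at 376 and 101 counts, a log2 ratio of -1.62. On the other side were *Ercc5*, a nuclease of nucleotide excision repair, at 192 and 487 counts (log2 ratio 1.60), and *Sesn1* at 246 and 556 (1.43). With the trends removed these 4 genes kept their sides, at -0.90, -0.81, 1.09 and 1.36.

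Paralogs of the 10 genes did not follow their relatives throughout. Of 11 kept of 14, 7 were higher and 4 lower, with a median log2 ratio of 0.37. 3 of 11 were above 2-fold and 1 of 11 below 0.5-fold, beside 22.2% and 8.71% of all genes. After removal of the trends, 6 were higher and 5 lower, with a median of 0.11. *Sesn1* and *Sesn3* (log2 ratio 1.53, from 120 and 293 counts) were higher where *Sesn2* was lower. Of the BTG/TOB family, *Tob2*, at 3165 and 1458 counts, was lower like *Btg2* (log2 ratio -0.85, and -0.57 with the trends removed), while *Btg1* was at 0.37 where *Btg2* was at -0.90. *Trp53inp2*, at 14028 and 10851 counts, was at -0.11 where *Trp53inp1* was at 2.75. *Ccng2* (305 and 464 counts) was higher like *Ccng1*, at 0.86. With the trends removed *Sesn3* was at 0.22, and 4 of the paralogs named here and below changed sides: *Btg1* was at -0.84, *Ccng2* at -0.30, *Trp53inp2* at 0.13 and *Bak1* at 0.11.

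Of the 14 BCL-2 family genes, the relatives and partners of BAX, 4 were higher and 10 lower, with a median log2 ratio of -0.33. Without the trends the split was 7 higher and 7 lower, with a median of -0.00. *Bak1*, the other effector of the family, was at 1548 counts with AAV-GFP and 849 with AAV-*Wee1-AS*, a log2 ratio of -0.60 that turned to 0.11 with the trends removed. *Bok* was at 756 and 243 counts, a log2 ratio of -1.37 (-0.54 with the trends removed). The antiapoptotic *Bcl2l1* was lower too, at 3446 and 1634 counts (-0.81, and -0.16 with the trends removed). *Mcl1* was at 0.14, which turned to -0.04, and *Bmf*, a proapoptotic BH3-only gene, at 0.67 (0.91). Of the 9 partners of GADD45 proteins kept, 5 were higher and 4 lower, with a median of 0.18 (4 higher, 5 lower and -0.04 with the trends removed). *Mapk8*, the kinase JNK1, was at 1.76 (0.20 with the trends removed), *Map3k4* at 0.29 (0.46), *Pcna* at 0.18 (-0.33), *Cdk1* at -0.54 (-0.97, from 238 and 136 counts) and *Cdkn1a* at -1.50 (-0.90).

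The 12 partners of sestrin 2 were split, with 6 higher and 6 lower and a median log2 ratio of -0.01 (also 6 and 6, and -0.03, with the trends removed). *Prkaa2*, a catalytic subunit of AMPK, was at 818 counts with AAV-GFP and 2664 with AAV-*Wee1-AS* (1.96, and 0.18 with the trends removed), and *Mios*, a subunit of GATOR2, at 141 and 418 (1.82, and 0.93). *Wdr24*, another GATOR2 subunit, was at -0.61 (0.0037 with the trends removed) and the autophagy receptor gene *Sqstm1* at -0.84 (-0.31). Of the 9 partners of BTG2, 7 were higher and 2 lower, with a median of 1.12 and 5 of 9 above 2-fold, beside 22.2% of all genes. With the trends removed, 6 were higher and 3 lower, with a median of 0.24, and 0 of 9 were past 2-fold, beside 15.9%. The deadenylase genes *Cnot6* and *Cnot6l* were at 2.41 and 2.12, and at 0.84 and 0.24 with the trends removed. *Cnot3* was at -0.17 (-0.23), and *Prmt1*, an arginine methyltransferase, at -0.29, which turned to 0.31.

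ATF4 and its targets, a stress program that also induces *Sesn2*, lay mostly on the side of *Sesn2*. *Sesn2* itself was at -0.77 (-0.13 with the trends removed). Of 9, 8 were lower and 1 higher, with a median log2 ratio of -0.98, where 8010 of 15857 genes kept were lower. 3 of 9 were below 0.5-fold and 1 of 9 above 2-fold, beside 8.71% and 22.2% of all genes. Once the trends were removed, 7 were lower and 2 higher, with a median of -0.22. *Atf4* was at -0.40, which turned to 0.27 with the trends removed. *Ddit3* was at -0.39 (-0.84), *Trib3* at -1.63 (-0.86) and *Atf3* at -1.89 (-1.45), and the 1 gene higher was that of asparagine synthetase, *Asns* (59 and 102 counts), at 1.03 (0.84). Immediate early genes, a class of rapidly induced genes to which *Btg2* and *Gadd45b* are often counted, were lower in 11 of 13, with a median of -0.64. 5 of 13 were below 0.5-fold, beside 8.71% of all genes. With the trends removed, 8 of 13 were lower, 4 of them below 0.5-fold, beside 1273 of 15109 genes, with a median of -0.12. *Fosb* was at 142 and 13 counts (-3.02) and *Nr4a1* at 257 and 48 (-2.12), and they were at -2.52 and -1.41 with the trends removed. *Egr1*, at 722 and 719 counts, was at 0.26 (0.74 with the trends removed), and *Klf6* was at 0.66, which turned to -0.50.

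**Figure D5:**
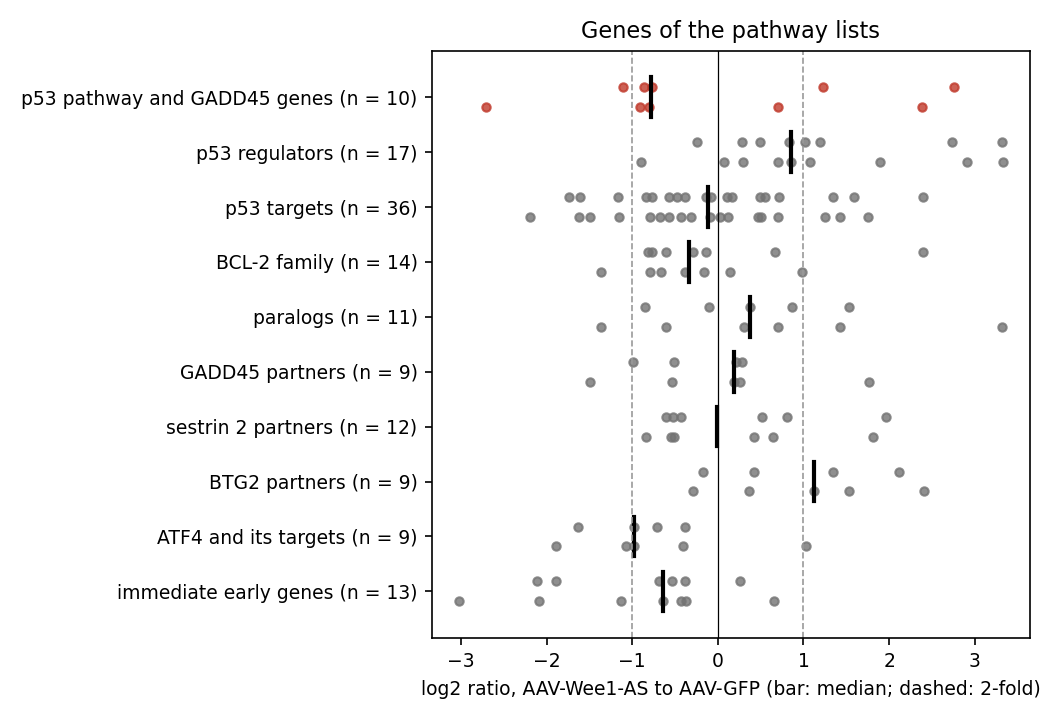
log2 ratio, AAV-Wee1-AS over AAV-GFP, for the 10 genes (red points) and for the genes of 9 related lists (grey points), with the median of each list as a bar and dashed lines at 2-fold. The p53 regulators (median 0.85) and BTG2 partners (1.12) lay to the right, ATF4 and its targets (-0.98) and the immediate early genes (-0.64) to the left, and the p53 targets (-0.11) on both sides.

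Both libraries held the defining markers of hepatocytes. Their 8 genes summed to 73610 CPM with AAV-GFP and 90133 with AAV-*Wee1-AS*, but 3 were higher and 5 lower, with a median log2 ratio of -0.04 (6 higher, 2 lower and 0.28 after removal of the trends), and *Alb* alone went from 44940 to 65042 CPM. The 8 stellate cell markers summed to 440 and 233 CPM, with 5 lower and 3 higher. The collagen genes *Col1a1*, *Col1a2* and *Col3a1* were lower (log2 ratio -2.32, -2.02 and -2.03), while *Lrat*, *Rgs5* and *Dcn* were higher (1.46, 1.58 and 0.33). After removal of the trends the collagen genes were at -2.01, -1.76 and -2.001, *Lrat* and *Rgs5* at 0.07 and 0.29, and *Dcn* turned to -1.14. The 8 Kupffer cell and macrophage markers summed to 611 and 487 CPM, with 4 higher and 4 lower and a median log2 ratio of -0.03. *Cd5l* was at -0.76, and *Marco* and *Vsig4* were at 1.60 and 1.52. The 7 endothelial markers summed to 262 and 247 CPM, with 3 higher and 4 lower. Cholangiocyte (38.2 and 34.4 CPM) and lymphocyte markers (4.90 and 4.77 CPM) were low in both. Neutrophil markers were also low (6.86 and 4.03 CPM), and all 4 kept of 5 were lower, with a median log2 ratio of -0.89 (-1.29 with the trends removed). The part of these cells in the ratios of the 10 genes was not tested.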

How the data were processed

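Liver poly-A RNA of 1 AAV-GFP and 1 AAV-*Wee1-AS* mouse group was measured in 2 libraries. The authors deposited 1 table of 129299 RefSeq transcripts (mm10) with estimated counts, which are not normalized, and FPKM and TPM values, which the authors scaled to transcript length and library. The submitters' processing notes name Trimmomatic 0.38, HISAT2 2.1.0, SAMtools 1.9 and StringTie 2.1.3b, without their roles. No reads were aligned again.

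Counts were summed per gene symbol and scaled by TMM (edgeR 4.0.16, R 4.3.3) over all genes, and a prior count of 2 was added for log2 ratios. A gene was kept if a library held at least 10 counts of it. Past 2-fold means a ratio above 2 or below 0.5. Intervals are exact (Clopper-Pearson, 95%) and leave out the prior count, and counts of 3 or fewer are a floor. Library totals were 55466182 and 48079335. GC content and length came from the longest GENCODE M21 transcript (95.3% of genes), and their trends were removed by lowess (span 0.3, 5 cycles; statsmodels 0.14.6). Steps were tested on simulated data.

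Beside the 10 genes, the text names from each of 9 lists the 2 highest and 2 lowest genes of at least 100 counts, and chosen relatives: *Cdkn1a*, *Mdm4*, *Sesn1*, *Sesn3*, *Btg1*, *Trp53inp2*, *Ccng2*, *Bak1*, *Map3k4*, *Pcna* and *Atf4*. *Wrap53* and *E230016M11Rik* were named for their position. Members and lists were chosen with earlier results of these data known. With 1 library per group, no test was made. Alternatives were other scalings (library totals, DESeq2 1.42.0 size factors, upper quartile), count filters, the deposited FPKM and TPM with a pseudocount of 1, 0.5 as the prior count, curated (NM) transcripts only, single transcripts and removal of the trends.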

Additional observations from a re-analysis of the deposited data

How the results depend on the processing

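No paired analysis was possible because each group has 1 library. Each alternative was run, and none gives a spread between mice. Library totals, DESeq2 size factors and a prior count of 0.5 moved none of the 33 values by more than counting error or, for counts of genes, by over 1.5 times. Every gene of the 10 kept its direction under the 11 alternatives to the whole-gene value, except *Ccng1*, which kept it under 10. With the trends with GC content and length removed, *Ccng1* was at -0.0060, on the other side of 0 but nearer to it than the width of its counting interval. The others that moved were then *Trp53* -0.47, *Mdm2* 1.89, *Bax* -0.0070, *Gadd45b* -1.96, *Gadd45g* -0.28, *Sesn2* -0.13 and *Trp53inp1* 1.19. Above 2-fold were then 2 of the 10 genes, beside 1132 of 15109 genes, and below 0.5-fold 1 of the 10, beside 1273. The genes past 2-fold were then 4 of 17 p53 regulators, 7 of 36 p53 targets, 2 of 11 paralogs and 1 of 9 GADD45 partners. They were 0 of 12 sestrin 2 partners, 0 of 9 BTG2 partners and 1 of 9 for ATF4 and its targets, beside 15.9% of all genes. The median was then -0.22 for ATF4 and its targets and -0.12 for immediate early genes. The cause was not tested.

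With upper quartile scaling, which put the median of all genes at -0.22, the log2 ratios were *Trp53* -1.07, *Bax* -1.005, *Ccng1* 1.02, *Sesn2* -0.97, *Btg2* -1.11 and *Trp53inp1* 2.55. Below 0.5-fold were then 5 of the 10 genes and 2232 of the 15857 genes kept, and above 2-fold 3 of the 10 and 2938. Of the 14 BCL-2 family genes, 4 were then past 2-fold. All genes below 0.5-fold numbered 2126 of 20282 with no count filter. They numbered 884 of 14412 with at least 10 counts in both libraries and 825 of 12815 with at least 50 in 1. Above 2-fold were 4768, 3008 and 2838 genes, in the same order. The stricter filters each left 1 BCL-2 family gene past 2-fold. With FPKM and a pseudocount of 1, which shrinks low genes, *Mdm2* was at 1.85, *Ccng1* 1.02, *Gadd45b* -0.97 and *Trp53inp1* 1.79, with 0 of the 10 genes below 0.5-fold, and 1029 of all genes above 2-fold and 307 below 0.5-fold. Past 2-fold were 1 p53 regulator, 2 p53 targets, 1 BCL-2 family gene, 2 paralogs, 1 GADD45 partner, 1 sestrin 2 partner, 2 of ATF4 and its targets and 1 immediate early gene. With TPM, *Ccng1* was at 1.12, *Gadd45b* -1.40 and *Trp53inp1* 2.15, with 1608 and 438 of all genes, and 5 p53 regulators, 5 p53 targets, 1 BCL-2 family gene, 2 of ATF4 and its targets and 3 immediate early genes past 2-fold.

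With NM transcripts only, *Trp53* was at -1.11 and *Mdm2* at 3.74, and 5 p53 regulators and 4 BCL-2 family genes were past 2-fold, beside 2831 above 2 and 1338 below 0.5 of 12240 genes. Single transcripts gave, for *Mdm2*, a reversed value for NM_001288586 (-3.21) and XM_017313822 (-0.71), and 4.08 for NM_010786 and 3.29 for XM_030244938. For *Trp53* they gave -0.47 for NM_001127233, -1.70 for NM_011640, -2.95 for XM_006533157, -0.076 for XM_030245922, -4.66 for XM_030245923 and 2.32 for XM_030245924. The rest that moved were XM_006540584 of *Bax* at 0.00060, XR_003949271 of *Ccng1* at 0.86, and NM_001199105 and NM_021897 of *Trp53inp1* at 2.56 and 3.36. Ratios with a library at 0 depend on the prior count and are no bounds. Depth limits *Gadd45b* the most, with 12 counts in the AAV-*Wee1-AS* library.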
